A study of Yarrowia lipolytica with 8 samples.

Results

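The oxygen supply of *Yarrowia lipolytica* growing on glucose and glycerol together was compared before glycerol ran out, in 4 RNA-seq libraries of the 8 in the series. Members were chosen by their labels and their sampling phase: the 2 replicates with pO2 control and the 2 without it, all of strain ACA DC 50109, taken from nitrogen-limited batch fermentations on equal parts of both substrates. In the controlled culture the dissolved oxygen (pO2) was held at a set point by the fermentor, and in the uncontrolled culture it was left to fall. The labels do not state the phase, which was taken from the heading of the study's supplementary table. The study calls the replicates biological, and whether those of one group came from separate fermentors is not given in the sources used here. A p-value therefore measures only the spread between these libraries, and pO2 control cannot be told apart from any other difference between the cultures, such as the stage of growth at sampling. The study states that sampling for RNA took place once nitrogen had become limiting in each culture.

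The values are FPKM, the fragments of a gene scaled to the length of its exons and to all mapped fragments of the library, which the authors deposited for 6371 genes of the controlled and 6386 genes of the uncontrolled culture. Both tables listed 6363 of the 6394 genes, and one listed in a single table only was set to 0 in the other culture. The steps between the lowest FPKM values placed the depth at 5350000 and 5380000 fragments in the controlled and at 5120000 and 5190000 fragments in the uncontrolled libraries. An FPKM of at least 1 was reached by 6130 and 6136 genes with pO2 control and by 5953 and 5901 genes without it. The 10 most abundant genes held 5.82% and 5.84% of the summed FPKM with control and 9.09% and 8.63% without it. The controlled replicates were nearly as close as counting error allows, with a variance 1.19 times the sampling noise over 6002 genes (chi-square p = 3.6e-22). They were kept as 2 samples as labelled, and this test does not tell separate cultures from repeat preparations of one. By the same measure the uncontrolled replicates varied 20.9 times as much as sampling noise over 5776 genes. In well covered genes, with 2000 fragments or more in the pair, the SD of the log2 difference within a pair was 0.0535 with control and 0.303 without it. In these genes the uncontrolled pair thus had the wider spread, which does not hold for every gene below.

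*Y. lipolytica* is an oleaginous yeast that needs oxygen to grow. Oxygen is the last electron acceptor of its respiratory chain, and it is also consumed in single steps of heme, sterol and unsaturated fatty acid synthesis and in the first step of peroxisomal fatty acid oxidation, which releases hydrogen peroxide. In yeasts, genes that take up and break down poor nitrogen sources are usually repressed while a good source such as ammonium or glutamine is plentiful, and the genes of ribosomes are usually highest in fast-growing cells.

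pO2 control was accompanied by a large change in the transcriptome. The FPKM reached 1 or more in 2 or more of the 4 libraries for 6158 genes, whose log2(FPKM + 1) was compared with limma. Called genes had both an adjusted p (Benjamini-Hochberg) under 0.05 and a log2 fold change of 2 or more in either direction. With pO2 control 884 genes were higher (14.4% of the genes tested) and 565 were lower (9.18%), which makes 1449 or 23.5%. In all 1449 called genes both controlled libraries lay on the same side of both uncontrolled libraries. The limits for a call make this nearly certain, so it is no further support for the calls. Over all genes tested, both controlled libraries lay above both uncontrolled ones in 53.4% and below them in 36.3%. Among the called genes the median log2 fold change was 2.90 for those higher and -2.78 for those lower, 206 genes were past 4 and 59 were past -4. The standard error of a log2 fold change had a median of 0.13 over the genes. With 2 libraries against 2, an exact permutation test of a single gene cannot go below p = 0.33, so the calls rest on the spread that limma shares across genes.

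The median log2 fold change of all genes tested was 0.31, so each value below is read against that shift. The balance of both directions depends on it. A median-of-ratios scaling, which sets the median near 0, gave 712 genes higher and 715 lower, and quantile normalization gave 632 higher and 747 lower. A gene without a KEGG Orthology number, the annotation used here for function, made up 32.2% of the higher and 37.5% of the lower genes, against 36.7% of all genes tested. The gene lists below were all chosen with earlier results of these data known. Their counts of called genes are read against the 14.4% higher and 9.18% lower over all genes tested.

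**Figure D1:**
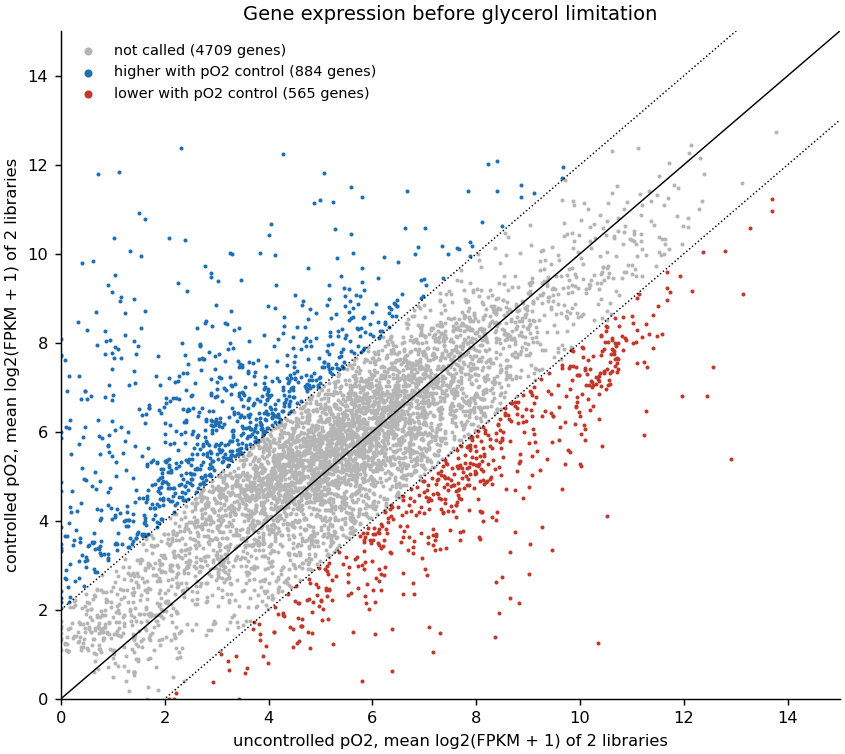
Mean log2(FPKM + 1) of the 2 controlled libraries (vertical axis) against that of the 2 uncontrolled libraries (horizontal axis) for 6158 genes, with the 884 genes higher with pO2 control in blue and the 565 lower in red; the solid line marks equal values and the dotted lines a difference of 2. Some of the blue genes sit at the left edge, near 0 without pO2 control, while red genes are seldom near 0 on the vertical axis.

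Without pO2 control the genes called higher had a lower median level than all genes tested. Their median FPKM was 82.3 with and 6.83 without pO2 control, whereas the genes lower with pO2 control had medians of 29.9 and 242. Over all genes tested these medians were 48.7 and 37.8. A call favours genes that are low in the lower culture, and the filter could be passed through the other culture alone. The low medians therefore follow in part from the rule. At most 3 fragments in each uncontrolled library, with a mean FPKM of at least 10 in the controlled ones, were found for 42 genes, of which 9 were at 0 and 14 had a mean over 100. The reverse was found for 7 genes, of which 1 was at 0 and 0 had a mean over 100. Genes lower with pO2 control were also shorter, with a median span of 937 bases against 1387 for the higher genes and 1260 for all genes tested. On the 6 chromosomes the share of genes higher ran from 12.1% on chromosome B to 17.7% on chromosome A, and that of genes lower from 7.79% on chromosome A to 10.7% on chromosome F.

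The largest increase belonged to YALI0_D02453g, a short gene without annotation on chromosome D from 293954 to 294313 of the CLIB122 assembly. Its FPKM was 3440.5 and 3619 with pO2 control and 0.63 in both uncontrolled libraries, where 2 fragments in all were behind it. The ratio was 5590, with a 95% counting interval of 1550 to 46100 that covers counting error only. YALI0_A00110g, which carries the gene ontology term of an oligopeptide transporter, lies close to a chromosome end (chromosome A, 2659 to 5277). It had 3704 and 3643 with pO2 control against 1.22 and 1.13 without it (log2 fold change 10.72, standard error 0.083, adjusted p = 8.0e-06). YALI0_A06974g, annotated only as an oxidoreductase, followed with 5329 and 5241 against 4.76 and 3.26 (log2 fold change 10.06, standard error 0.16, adjusted p = 1.5e-05). It was among the 10 most abundant transcripts of the controlled culture. These 3 genes thus were close to 0 without pO2 control and among the abundant transcripts with it, and replicates differed far less than groups.

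Genes that bring nitrogen into the cell were called in both directions, more of them higher with pO2 control. Of 29 genes for amino acid, peptide and ammonium transporters 11 were higher and 2 lower, and their median was 1.64 on the log2 scale against 0.31 over all genes. Their share of the summed FPKM was 0.872% and 0.864% with and 0.101% and 0.0806% without pO2 control. Ammonium permeases carry the ammonium ion across the plasma membrane, and 3 of the genes for them were called. YALI0_B13794g, on chromosome B from 1850233 to 1851612, was at 304 and 309 with pO2 control and at 1.03 and 0.58 without it (log2 fold change 7.42, standard error 0.16, adjusted p = 2.0e-05). YALI0_A19228g was at 315 and 306 against 0.74 and 0.15. The most abundant of them, YALI0_E27203g, was at 2245 and 2243 against 36.1 and 22.2, which is 6.26 on the log2 scale (standard error 0.24, adjusted p = 4.5e-05). A further permease gene, YALI0_F16896g, had 388 and 383 against 139.9 and 83.4 and a log2 fold change of 1.83, which is under the minimum for a call. Its uncontrolled replicates stood apart, and without the first of them the value was 2.20 and passed.

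Amino acid permeases of the AAT family import amino acids together with protons. The largest change among them was in YALI0_E10219g, with an FPKM of 752 and 728 with pO2 control and 1.13 and 1.00 without it (log2 fold change 8.49, standard error 0.1). YALI0_C17237g was at 996 and 981 against 5.01 and 0.42 (log2 fold change 8.40, standard error 0.69). The family did not move as one. YALI0_B16522g was at 1.67 and 1.99 with pO2 control and at 43.4 and 53.4 without it (log2 fold change -4.12), and YALI0_F19866g changed by -2.67. YALI0_F30569g, annotated as a nucleobase:cation symporter, a carrier of purine or pyrimidine bases, reached 941 and 894 against 0.85 and 0.28 (log2 fold change 9.22). Of the 5 genes of the allantoate permease family, which import ureides and related acids in *Saccharomyces cerevisiae*, 3 were higher and 0 lower with a median of 2.70. Their levels were low, and with a pseudocount of 5 only 1 was higher. Only 1 of them reached an FPKM of 1 in all 4 libraries, and it was not called.

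Enzymes that free ammonium from other compounds were called in both directions, more of them higher. A list of 28 genes for nitrogen source breakdown and ammonium assimilation, put together after their values had been seen, had 25 tested members, of which 13 were higher and 1 lower, with a median log2 fold change of 2.08. It held 1.95% of the summed FPKM in both controlled libraries and 0.403% and 0.370% in the uncontrolled ones. Amidases release ammonium from amides. The amidase gene YALI0_F16401g, on chromosome F from 2192338 to 2193996, was at 1939 and 1939 with pO2 control and at 2.31 and 1.44 without it (log2 fold change 9.41, standard error 0.17, adjusted p = 1.6e-05). A second amidase gene, YALI0_E34771g, was at 410.2 and 409 against 0.87 and 0.37, while another, YALI0_F03003g, was the 1 member of the list that was lower, with 9.93 and 10.7 against 78.6 and 58.7. Amine oxidases act on primary amines with oxygen and release ammonium and hydrogen peroxide. The gene YALI0_C22792g for one of them rose to 1256 and 1272 from 4.78 and 3.79 (log2 fold change 7.91, standard error 0.12, adjusted p = 1.5e-05).

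Purine and urea breakdown moved unevenly. Guanine deaminase, which opens the route from guanine to urate, was encoded by YALI0_E25740g with 842 and 840.0 with pO2 control and 5.54 and 6.22 without it (log2 fold change 6.94, standard error 0.095). Urea amidolyase, which splits urea in yeasts that lack urease, was encoded by YALI0_E07271g with 647 and 641 against 5.70 and 2.35 (log2 fold change 7.09, standard error 0.34). The steps between them changed less: the log2 fold change was 2.83 for the urate oxidase gene YALI0_F09251g and 2.91 for the allantoinase gene YALI0_F23243g. Both were variable without pO2 control, with 238 and 109 for the first and 56.2 and 27.8 for the second, and neither group overlapped the other. Proline dehydrogenase, the first enzyme of proline use, was more variable still. Its gene YALI0_B09625g was at 380.2 and 359 against 57.5 and 11.4 (log2 fold change 3.78, standard error 0.74, adjusted p = 0.0078), and without the first controlled replicate its adjusted p was 0.051.

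Ammonium is built into glutamine and glutamate by glutamine synthetase with glutamate synthase, or by glutamate dehydrogenase. Of the genes annotated as glutamine synthetase, the abundant YALI0_F00506g was at 3248 and 3250.2 with pO2 control and at 842 and 837 without it. Its log2 fold change of 1.95 (standard error 0.068) lay just under the minimum. YALI0_D13024g changed from 28.7 and 19.96 to 459 and 459 (log2 fold change 4.20, standard error 0.18), and the glutamate synthase gene YALI0_B19998g from 25.3 and 13.7 to 335 and 332 (log2 fold change 4.09, standard error 0.29). The NADP-dependent glutamate dehydrogenase gene YALI0_F17820g, for the enzyme that makes glutamate, had 2190.0 and 2214 against 1084 and 826. The other glutamate dehydrogenase gene, YALI0_E09603g, had 145 and 147 against 443 and 426, so this pair of genes had opposite signs, 1.22 and -1.56, with both under the minimum for a call.

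Breakdown of the branched-chain amino acids leucine, isoleucine and valine had the highest median of the lists examined. This list was also put together after the values were seen, so its rank is not the outcome of a test. Of its 10 genes 9 were higher and 0 lower, and their median was 5.78 on the log2 scale. After transamination a dehydrogenase complex commits the carbon skeletons to breakdown, and the genes for its E1 subunits were at 110.4 and 114 against 0.87 and 1.15 (YALI0_D08690g) and at 137 and 134 against 1.70 and 1.69 (YALI0_F05038g). The next leucine-specific enzyme, isovaleryl-CoA dehydrogenase, is encoded by YALI0_E12573g on chromosome E from 1529941 to 1531194. Its FPKM was 236 and 238 with pO2 control and 1.14 and 0.96 without it (log2 fold change 6.86, standard error 0.12, adjusted p = 1.6e-05). YALI0_E12595g, beside it from 1531621 to 1533324, encodes a subunit of the following enzyme, 3-methylcrotonyl-CoA carboxylase, and had 199 and 202 against 1.54 and 0.93. The gene for the other subunit lies on another chromosome. YALI0_B14619g was at 212 and 214 against 1.74 and 1.73 (log2 fold change 6.29), so that the genes of both subunits rose. For methylglutaconyl-CoA hydratase, the next step, YALI0_F22121g had 108 and 105 against 0 and 0.7, a ratio of 301 with a 95% counting interval of 103 to 1460. The exception was one of the transaminase genes, YALI0_F19910g, with 72.3 and 68.4 with pO2 control and 101 and 166 without it. A transaminase also works in the direction of synthesis.

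For serine and aromatic amino acids more genes were lower than higher. A list of 9 genes for their synthesis, chosen after the values were seen, had 1 higher and 4 lower with a median log2 fold change of -1.65. Phosphoglycerate dehydrogenase takes glycolytic carbon into serine. Its gene YALI0_F09966g, on chromosome F from 1348773 to 1350308, was at 15.9 and 16.4 with pO2 control and at 1399 and 1539 without it (log2 fold change -6.42, standard error 0.089, adjusted p = 1.3e-05). A second gene with the same annotation, YALI0_D25256g, did the reverse with 190.0 and 187 against 10.8 and 11.9 (log2 fold change 3.95). The annotation of both genes rests on sequence similarity. The first enzyme of aromatic synthesis, DAHP synthase, had genes at 9.37 and 10.9 against 508 and 538 (YALI0_B20020g, log2 fold change -5.56) and at 17.2 and 17.6 against 238 and 306 (YALI0_C06952g, log2 fold change -3.88). On the breakdown side, the L-serine dehydratase gene YALI0_B16214g was at 209 and 210.4 with pO2 control and at 0 in both uncontrolled libraries, which makes it at least 376-fold higher against a floor of 3 fragments per library.

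Secreted hydrolases include the proteases. Of 24 tested genes of secreted hydrolases 7 were higher and 2 lower, with a median of 1.11 (4 higher under quantile normalization), and the list held 1.38% and 1.39% of the summed FPKM with pO2 control and 0.230% and 0.188% without it. With pO2 control most of that share came from a pair of genes. The annotation of the second is that of a vacuolar enzyme, and secretion of its product was not tested. YALI0_B05654g, which encodes the acid extracellular protease of this yeast, was at 4828 and 4853 with pO2 control and at 24.4 and 13.9 without it (log2 fold change 7.96, standard error 0.27, adjusted p = 3.6e-05). YALI0_B16500g, annotated as cerevisin, a vacuolar subtilisin-type protease in *S. cerevisiae*, was at 4320.2 and 4347 against 408 and 279 (log2 fold change 3.68, standard error 0.19). Aspartyl proteases of the same annotation as the first also occurred among the lower genes. YALI0_E25784g had 5.95 and 4.27 with pO2 control and 86.7 and 136 without it (log2 fold change -4.18, standard error 0.27). The gene of the extracellular lipase LIP2, YALI0_A20350g, had 8.82 and 7.79 against 7.37 and 5.07, low in both cultures, and a log2 fold change of 0.38 (adjusted p = 0.16).

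Peroxisomal fatty acid oxidation rose at every gene listed. All 8 genes of the beta-oxidation list were called higher, with a median of 4.73 and a range from 2.77 to 5.95. Acyl-CoA oxidases (POX1 to POX6) catalyse the first step, with oxygen as the acceptor. POX3, YALI0_D24750g on chromosome D from 3291579 to 3293681, was at 165 and 161 with pO2 control and at 1.43 and 1.88 without it (log2 fold change 5.95, standard error 0.14, adjusted p = 2.1e-05). POX6, YALI0_E06567g, was at 43.9 and 44.9 against 0.1 and 0.19, a ratio of 308 with a 95% counting interval of 105 to 1500. POX1, YALI0_E32835g, changed least, from 1.48 and 1.75 to 17.4 and 16.3 (log2 fold change 2.77, and 1.73 with a pseudocount of 5 and 1.95 under quantile normalization, both under the minimum). The multifunctional enzyme of the middle steps, YALI0_E15378g, was at 323 and 322 against 5.0 and 5.24 (log2 fold change 5.72, standard error 0.094), and the thiolase of the last step, YALI0_E18568g, at 67.7 and 67.6 against 1.31 and 1.13. The list as a whole still held only 0.0948% and 0.0936% of the summed FPKM with pO2 control, against 0.00197% in both uncontrolled libraries.

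Peroxins build the organelle itself, by importing its proteins and dividing it. Of 27 tested genes with a peroxin annotation 15 were higher and 0 lower, with a median of 2.49. Several of these annotations are distant matches to peroxin-3. Among the 12 whose best match was the entry of *Y. lipolytica* itself, 10 were higher and 0 lower with a median of 2.63. The receptor and chaperone of membrane proteins, peroxin-19 (YALI0_B22660g), was at 209 and 203 against 7.83 and 5.86 (log2 fold change 4.73), and the division factor peroxin-11 (YALI0_C04092g) at 270.4 and 282 against 25.8 and 24.7 (log2 fold change 3.40). Peroxin-7 (YALI0_F18480g), the receptor for a second class of import signal, was nearly level, with 104 and 102 against 74.3 and 76.4. Catalase, which removes the hydrogen peroxide of the oxidase step, had its main gene YALI0_F30987g at 682 and 662 with pO2 control and at 3.97 and 12.4 without it (log2 fold change 6.36, standard error 0.48, adjusted p = 3.1e-04). The uncontrolled replicates of this gene differed widely and still lay far below both controlled ones.

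Cytochromes P450 of the ALK family hydroxylate alkanes and fatty acids with oxygen. Of 10 tested members 7 were higher and 0 lower, with a median of 2.86. With a pseudocount of 5 only 3 were higher. Just 4 members reached an FPKM of 1 in all 4 libraries, and 2 of these were higher. ALK2, YALI0_F01320g, had 79.8 and 73.2 with pO2 control and 0.13 in both uncontrolled libraries, a ratio of 599 with a 95% counting interval of 165 to 4950. ALK1, YALI0_E25982g, had 11.1 and 10.6 against 0.13 and 0.25. The level of ALK1 was low in all 4 libraries, and with a pseudocount of 5 in place of 1 its log2 fold change was 1.61 and under the minimum.

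The glyoxylate cycle, which turns 2-carbon units into sugar precursors, and the methylcitrate cycle, which uses propionyl-CoA, had 3 of 5 genes higher and a median of 4.65. Within the glyoxylate cycle both malate synthase genes were called and neither isocitrate lyase gene was. YALI0_E15708g for malate synthase was at 346 and 351 with pO2 control and at 9.81 and 6.31 without it (log2 fold change 5.30, standard error 0.21, adjusted p = 4.9e-05). The second malate synthase gene, YALI0_D19140g, was at 68.7 and 68.0 against 0.38 in both uncontrolled libraries, a ratio of 181 with a 95% counting interval of 83.0 to 495. Isocitrate lyase changed less, with 146 and 146 against 120.1 and 118 for YALI0_C16885g (log2 fold change 0.29) and 123 and 128 against 46.0 and 47.6 for YALI0_F31999g (log2 fold change 1.40). The 2-methylcitrate dehydratase gene YALI0_F02497g rose to 227 and 235 from 6.20 and 10.9 (log2 fold change 4.65).

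The TCA cycle stood close to all genes tested, both in its share of genes called higher and in its median. Of 20 tested 3 were higher and 0 lower, while over all genes tested 14.4% were higher and 9.18% lower. The median of this list was 0.37 beside the 0.31 of all genes. Its share of the summed FPKM did differ, with 1.46% in both controlled libraries and 0.8% and 0.752% in the uncontrolled ones. Citrate synthase showed a split between its genes: YALI0_E00638g was at 187 and 207 with pO2 control and at 5.29 and 6.25 without it (log2 fold change 4.87, standard error 0.13), whereas YALI0_E02684g was at 298 and 291 against 322 and 251, which overlap. A malate dehydrogenase gene, YALI0_E14190g, was at 2715 and 2686 against 323 and 355 (log2 fold change 2.99, standard error 0.081). The last of the called genes, YALI0_D04741g for a subunit of succinyl-CoA synthetase, was at 1007 and 1017 against 177 and 171.

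Glycolysis had 4 of 15 genes higher and 0 lower (14.4% and 9.18% over all genes). Its median of 0.19 was near that of all genes, and it was -0.13 under median-of-ratios scaling with 2 genes higher. One of the 4 was a gene annotated as triosephosphate isomerase, YALI0_F01584g, at 249 and 234 against 7.43 and 3.92 (log2 fold change 5.23). Its annotation rests on sequence similarity, and a role of this gene in glycolysis was not tested. Beyond pyruvate, the genes for pyruvate decarboxylase, which makes acetaldehyde in fermentation, went in opposite directions. YALI0_D10131g was at 711 and 734 with pO2 control and at 4480.4 and 3339.9 without it (log2 fold change -2.42, standard error 0.16), a value that was -1.85 under quantile normalization. YALI0_D06930g was at 303 and 307 against 53.7 and 90.8 (log2 fold change 2.11, standard error 0.26), a change that was 1.80 under median-of-ratios scaling and 1.74 without the first uncontrolled replicate. Of the alcohol dehydrogenase genes, YALI0_A16379g was at 187 and 181 against 5.09 and 3.87 (log2 fold change 5.09). Phosphoenolpyruvate carboxykinase, the entry to gluconeogenesis, had 305 and 307 against 76.5 and 68.0 for YALI0_C16995g. Its log2 fold change of 2.07 was 1.76 under median-of-ratios scaling and 1.98 without the second uncontrolled replicate. In the pentose phosphate pathway 0 of 8 genes were called in either direction by limma (23.5% over all genes) and 0 by voom on recovered fragments. All 8 had an unadjusted p under 0.05 in limma, 4 with a positive and 4 with a negative log2 fold change.

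Glycerol was still present in both cultures at this phase. Its entry and catabolism had 6 of 15 genes higher and 0 lower, with a median of 1.95, but the enzymes of the main route were not among them. Glycerol kinase (GUT1, YALI0_F00484g) had 1089.9 and 1083 with pO2 control and 629.7 and 611 without it, a log2 fold change of 0.81 (standard error 0.069). The mitochondrial glycerol-3-phosphate dehydrogenase (GUT2, YALI0_B13970g), which hands its electrons to the respiratory chain, had 394 and 402 against 1568 and 1538. The change in GUT2 was -1.96 (standard error 0.069), just short of the minimum, and it was -2.28 and past it under median-of-ratios scaling. Called genes of the list included an aquaporin-family channel, YALI0_D00495g, at 242 and 223 against 1.85 and 0.61 (log2 fold change 6.77, standard error 0.3). They also included a gene annotated as dihydroxyacetone kinase, YALI0_F01606g, at 454 and 460.2 against 40.5 and 28 (log2 fold change 3.72). That annotation rests on sequence similarity, and a role in glycerol use was not tested. Among the 6 tested members whose best match was an entry of *Y. lipolytica* itself, 2 were higher and 0 lower with a median of 1.19. Another aquaporin-family gene, YALI0_A07579g, was at 23.9 and 24.7 against 0 in both uncontrolled libraries, at least 64.0-fold higher against the floor.

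Transporters of sugars and organic acids had 7 of 21 genes higher and 0 lower, with a median of 0.78. Among the 13 with an FPKM of at least 1 in all 4 libraries 1 was higher. With a pseudocount of 5 the number higher was 6 of 21. The largest values belonged to the lactate transporter family, members of which carry organic acids. YALI0_B19470g was at 629 and 621 with pO2 control and at 0.89 and 0.88 without it (log2 fold change 8.38, standard error 0.097). YALI0_E32901g was at 355 and 355 against 0.13 and 0.38, a ratio of 1390 with a 95% counting interval of 544 to 5120. A gene annotated as an inositol transporter, YALI0_F18084g, was at 213 and 215 against 0.71 and 0.9 (log2 fold change 6.90).

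Few genes of lipid synthesis were called. In fatty acid synthesis and desaturation 0 of 10 genes were called in either direction (23.5% over all genes), with a median of 0.37. In limma 9 of the 10 had an unadjusted p under 0.05, with 5 positive and 4 negative changes, and voom on recovered fragments also called 0. Acetyl-CoA carboxylase, which makes the building block of fatty acids, was encoded by YALI0_C11407g with 106 and 106 against 34.5 and 63.7 (log2 fold change 1.16, standard error 0.3). Triacylglycerol synthesis and storage had 2 of 7 genes higher (14.4% over all genes), both for the last acylation of storage lipid. DGA1, YALI0_E32769g, was at 141 and 140.3 with pO2 control and at 19.4 and 20.9 without it (log2 fold change 2.75, standard error 0.095). LRO1, YALI0_E16797g, which takes its acyl group from phospholipids, was at 91.5 and 90.5 against 9.68 and 8.05 (log2 fold change 3.23, standard error 0.13).

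**Figure D2:**
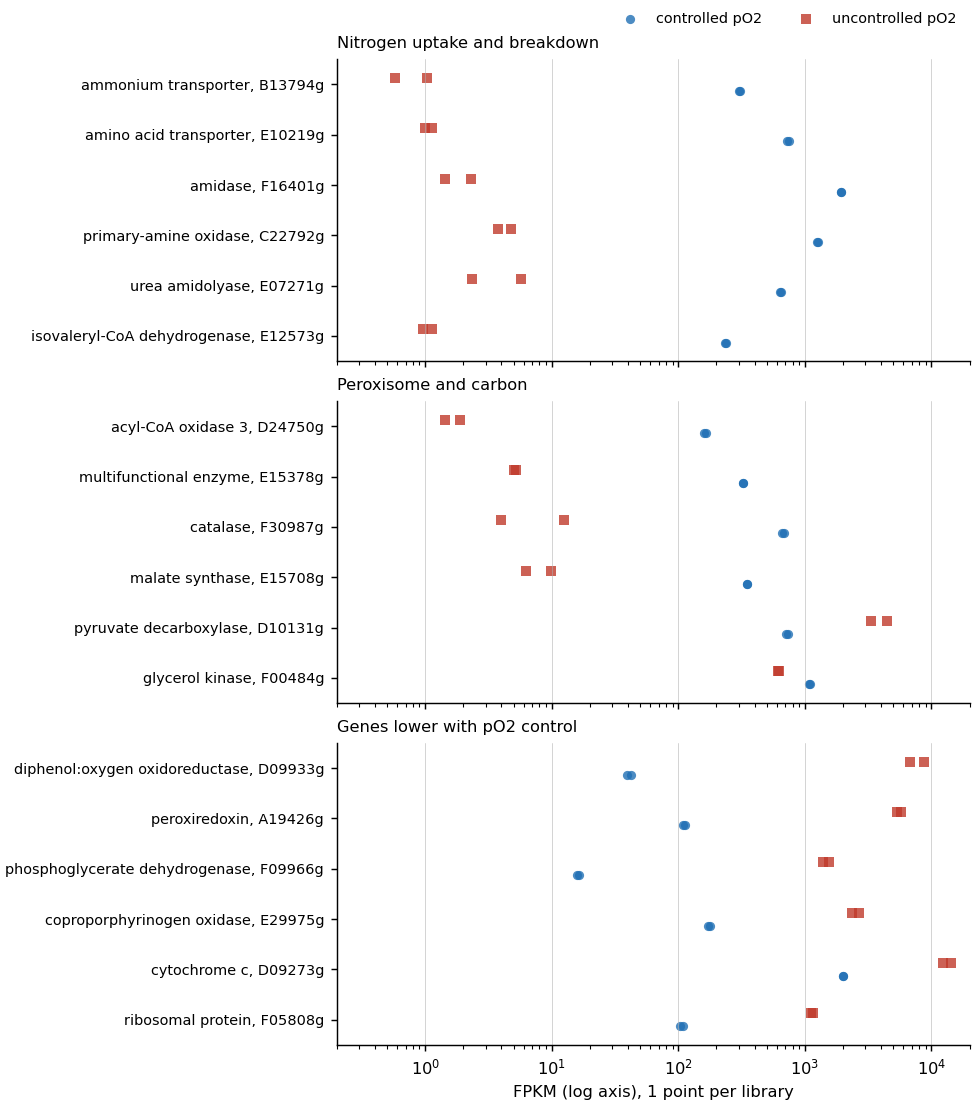
FPKM in each of the 4 libraries (log axis, 1 point per library, blue circles for controlled and red squares for uncontrolled pO2) for 18 genes of nitrogen use, of peroxisomes and carbon metabolism, and of the genes lower with pO2 control, each named with the end of its locus tag. In each of the 18 genes the groups are apart, and the controlled replicates nearly coincide; glycerol kinase has the smallest gap.

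Called genes of DNA replication and of histones were all higher with pO2 control. In the replication and cell cycle list 28 of 63 genes were higher and 0 lower, with a median of 1.70. The large subunit of ribonucleotide reductase, which supplies deoxynucleotides, was encoded by YALI0_F31735g with 540.4 and 538 against 25.7 and 18.4 (log2 fold change 4.57, standard error 0.17, adjusted p = 4.5e-05). The sliding clamp of the polymerases, YALI0_D10571g, was at 469 and 470.0 against 54.1 and 49.1 (log2 fold change 3.16). Catalytic subunits of the replicative polymerases moved with it, by 4.02 for polymerase alpha (YALI0_E11869g) and 3.85 for polymerase delta (YALI0_A08426g). Of 10 tested histone genes 5 were higher and 0 lower, with a median of 1.98. In all 10 both controlled libraries lay above both uncontrolled ones (53.4% over all genes). The histone H4 gene YALI0_F25883g was at 4124 and 4117 with pO2 control and at 367 and 240.5 without it (log2 fold change 3.79, standard error 0.21). Histones held 2.22% of the summed FPKM in both controlled libraries and 0.538% and 0.386% in the uncontrolled ones. Near-identical histone copies share reads, so that the split of reads between copies is uncertain.

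Ribosomal protein genes were called in the other direction. Of 82 genes of cytosolic ribosomal proteins 76 were lower and 0 higher with pO2 control, with a median log2 fold change of -2.84. YALI0_D05731g, a small subunit protein, was at 76.0 and 66.1 with pO2 control and at 879 and 1049 without it (log2 fold change -3.74, standard error 0.13, adjusted p = 3.8e-05). YALI0_F05808g, a large subunit protein on chromosome F from 864118 to 864711, was at 103 and 109 against 1108 and 1162 (log2 fold change -3.41). The list held 2.03% and 2.05% of the summed FPKM with pO2 control and 10.1% and 11.5% without it. Of the 6 members not called, 3 had negative log2 fold changes from -1.70 (YALI0_D13104g, L10e) to -1.48 (YALI0_F09790g, S27Ae). The other 3 were positive: L38e (YALI0_B11308g) at 116 and 113 against 77.0 and 98.2, L3e (YALI0_C12496g) at 127 and 124 against 80.8 and 61.4, and L17e (YALI0_F01056g) at 24.7 and 25.1 against 6.15 and 8.38.

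Many of the factors that assemble ribosomes were lower as well. Of 84 ribosome biogenesis genes 33 were lower and 0 higher, with a median of -1.76. In 76 of the 84 both controlled libraries lay below both uncontrolled ones (36.3% over all genes). Under median-of-ratios scaling 45 and under quantile normalization 61 were lower. Ribosome production factor 2 (YALI0_A03905g), which acts on the large subunit, was at 3.88 and 5.08 against 75.6 and 65.3 (log2 fold change -3.71). Of the 6 genes listed as mitochondrial ribosomal proteins from their annotation 5 were lower, with a median of -2.52. This short list may not cover the whole class. Among 37 genes for aminoacyl-tRNA synthetases, which load amino acids onto tRNA, 4 were lower and 1 higher, with a median of -1.21. The shares over all genes tested were 9.18% lower and 14.4% higher. In this list 7 genes were lower under median-of-ratios scaling and 9 under quantile normalization. The tryptophan enzyme, YALI0_F22935g, was at 12.8 and 17.3 against 276 and 282 (log2 fold change -4.14), and the serine enzyme, YALI0_B05918g, at 25.9 and 23.9 against 459 and 396 (log2 fold change -4.04).

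**Figure D3:**
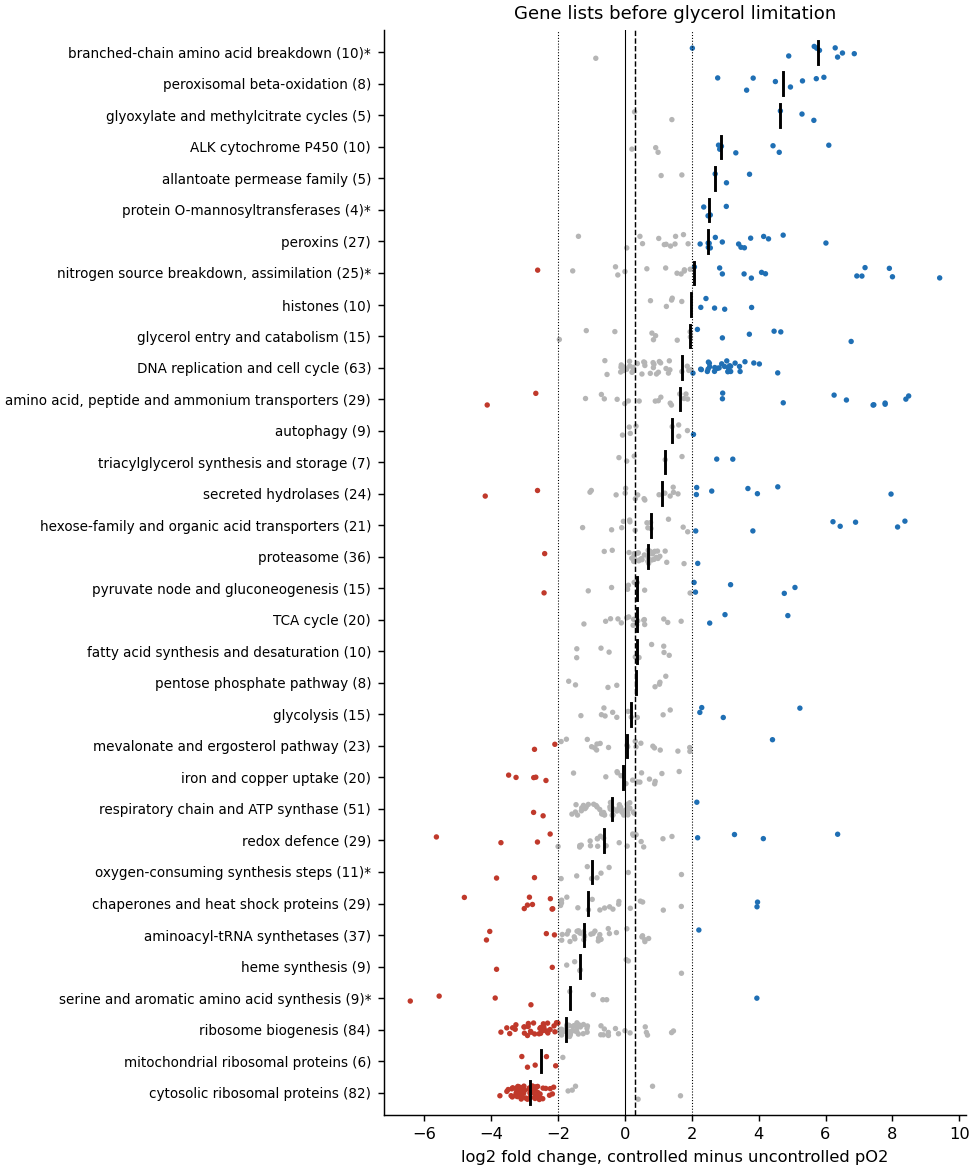
Log2 fold change (controlled minus uncontrolled pO2) of each tested member of 34 gene lists, with the number tested in brackets, called genes in blue (higher) or red (lower) and the median of each list as a black bar; the dashed line is the median of all genes, the dotted lines are the minimum of 2 in either direction, and lists with an asterisk were added after values were seen. Branched-chain amino acid breakdown, a list with an asterisk, has the highest median (5.78) and cytosolic ribosomal proteins the lowest (-2.84). The lists without an asterisk were chosen with earlier results of these data known.

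The single largest decrease was in YALI0_D24145g, a gene without annotation on chromosome D from 3177588 to 3178631. It was at 1.13 and 1.68 with pO2 control and at 1462 and 1169.7 without it (log2 fold change -9.10, standard error 0.18, adjusted p = 1.7e-05). Next came YALI0_D09933g on chromosome D from 1255379 to 1256428, whose gene ontology term, an oxidoreductase acting on diphenols with oxygen as acceptor, is the class of the alternative oxidases, which pass electrons from ubiquinol to oxygen beside the cytochrome chain. This gene was at 42.5 and 39.2 with pO2 control and at 8663 and 6774 without it (log2 fold change -7.52, standard error 0.14, adjusted p = 1.7e-05), where it was among the 10 most abundant transcripts. YALI0_F15411g, annotated as a zinc transporter, was at 2.60 and 5.48 against 400.0 and 405 (log2 fold change -6.38, standard error 0.3).

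Few genes of the respiratory chain were called. Of 51 genes for complexes, carriers and ATP synthase 1 was higher and 2 lower (14.4% and 9.18% over all genes), with a median of -0.38. In 37 of the 51 both controlled libraries lay below both uncontrolled ones (36.3% over all genes). The direction of this list depends on the scaling, since under quantile normalization its median was 0.12 with 0 genes called. Cytochrome c, the mobile carrier to the last complex, was the second most abundant transcript of the uncontrolled culture. Its gene YALI0_D09273g was at 2009 and 1990.1 against 14224 and 12429 (log2 fold change -2.73, standard error 0.096, and -1.98 under quantile normalization). Subunit 5a of cytochrome c oxidase, YALI0_E10144g, was at 614 and 589.8 against 3837 and 2819 (log2 fold change -2.45, and -1.92 under quantile normalization). The 1 gene that was higher, YALI0_E05599g, is annotated as an NADH dehydrogenase and was at 162 and 159.6 against 40.6 and 30.8. Its log2 fold change of 2.15 was 1.84 under median-of-ratios scaling, 1.98 under quantile normalization and 1.96 without the second uncontrolled replicate, all under the minimum. Larger differences were found in genes that assemble cytochrome c oxidase, picked after their values were seen. YALI0_C17391g was at 29.2 and 46.0 with pO2 control and at 1077 and 996 without it (log2 fold change -4.78), and YALI0_F24651g at 37.3 and 38.4 against 818 and 866 (log2 fold change -4.44).

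Steps of synthesis that consume oxygen were covered by a list of 11 genes for heme, sterols and unsaturated fatty acids. The list was chosen after values were seen. Of its genes 2 were lower and 0 higher, with a median of -0.997, while over all genes tested 9.18% were lower and 14.4% higher. In 9 of 11 both controlled libraries lay below both uncontrolled ones (36.3% over all genes). Heme synthesis had 2 of 9 genes lower and a median of -1.35. Coproporphyrinogen oxidase, one of its oxygen-dependent steps, was encoded by YALI0_E29975g with 176 and 171 with pO2 control and 2673 and 2342 without it (log2 fold change -3.84, standard error 0.094, adjusted p = 2.4e-05). Uroporphyrinogen decarboxylase, the step before it, needs no oxygen, and its gene YALI0_C01716g was at 115 and 119 against 534 and 529.6 (log2 fold change -2.17). In the mevalonate and ergosterol pathway 1 of 23 genes was higher and 2 were lower, with a median of 0.06. The log2 fold changes of this pathway ran from -2.71 to 4.41. In 10 of its genes both controlled libraries lay above both uncontrolled ones, and in 10 below (53.4% and 36.3% over all genes). Median-of-ratios scaling gave 1 higher, 4 lower and a median of -0.25, and quantile normalization gave 3 higher, 1 lower and a median of -0.20. Methylsterol monooxygenase, which removes methyl groups from the sterol ring with oxygen, was at 499 and 498 against 3221 and 3298 (YALI0_F11297g, log2 fold change -2.71). Squalene monooxygenase, the first oxygen step of the route, was at 239.9 and 241 against 940.0 and 872 (YALI0_E15730g). Its log2 fold change of -1.91 was just under the minimum and -2.22 under median-of-ratios scaling. The sterol methyltransferase gene YALI0_F08701g was at 515 and 512 against 1996 and 2424, a log2 fold change of -2.10 that was -1.53 under quantile normalization and -1.96 without the second uncontrolled replicate. Desaturases put double bonds into fatty acids with oxygen, and their changes were smaller, -0.72 for the delta-9 enzyme (YALI0_C05951g) and -1.44 for the delta-12 enzyme (YALI0_B10153g), both negative and under the minimum.

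Nitric oxide dioxygenase, a flavohemoglobin that detoxifies nitric oxide with oxygen, ranked 3 by mean FPKM among the transcripts of the uncontrolled culture, with 2426 and 2365 with pO2 control and 13546 and 12907 without it (YALI0_C21362g, log2 fold change -2.46, and -1.64 under quantile normalization). Of 20 tested genes for iron and copper uptake 5 were lower and 0 higher (9.18% and 14.4% over all genes), with a median of -0.04. The copper transporter gene YALI0_C20295g was at 1071 and 1069.5 against 6107 and 8253 (log2 fold change -2.73, standard error 0.16), and the high-affinity iron transporter gene YALI0_D07304g at 1.92 and 1.75 against 24.6 and 27.8 (log2 fold change -3.26). A ferric reductase gene, YALI0_F07040g, had uneven uncontrolled replicates of 207 and 472 against 27.6 and 26.8 with pO2 control (log2 fold change -3.48, standard error 0.4).

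Genes of redox defence were called in both directions. Of 29 genes 4 were higher and 4 lower (14.4% and 9.18% over all genes), with a median of -0.64. Peroxiredoxin YALI0_A19426g, which reduces peroxides, was at 109 and 112 with pO2 control and at 5766 and 5364 without it (log2 fold change -5.64, standard error 0.077, adjusted p = 1.3e-05). A superoxide dismutase of the iron and manganese family, YALI0_B20086g, was at 13.4 and 12.2 against 192 and 168 (log2 fold change -3.71). On the other side stood the catalase described above and glutathione S-transferase YALI0_E03586g, at 141 and 154 against 6.77 and 8.13 (log2 fold change 4.14). Chaperones were mixed as well, with 2 of 29 higher, 8 lower and a median of -1.09, and with 13 lower under median-of-ratios scaling. A cytosolic HSP70 gene, YALI0_D08184g, was at 88.2 and 86.6 against 2465 and 2469 (log2 fold change -4.80, standard error 0.069), while the HSP70 of the endoplasmic reticulum, YALI0_E13706g, was at 1529.7 and 1549 against 98.7 and 96.4 (log2 fold change 3.97, standard error 0.07). Several HSP70 genes are close copies, and reads shared between them make single values less certain.

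Transcripts for protein mannosylation were also higher with pO2 control, and a link to the HSP70 gene of the endoplasmic reticulum was not tested. All 4 genes annotated as protein O-mannosyltransferases, a list chosen after values were seen, were higher, with a median of 2.52. YALI0_D10549g changed most, from 7.38 and 8.23 to 71.7 and 70.2 (log2 fold change 3.03). YALI0_F25993g, annotated as an alpha-1,2-mannosyltransferase, which extends mannose chains, was at 1076 and 1068 against 1.51 and 1.49 (log2 fold change 8.75, standard error 0.089). The proteasome, which degrades marked proteins, had 1 of 36 genes higher, 1 lower and a median of 0.69, and 33 of the 36 had both controlled libraries above both uncontrolled ones (53.4% over all genes). Of 9 autophagy genes 1 was higher, ATG7 (YALI0_C20119g) at 61.6 and 58.7 against 15.7 and 12.1, with a list median of 1.41. For both lists the shares over all genes tested were 14.4% higher and 9.18% lower. The log2 fold change of ATG7, 2.05, was 1.75 under median-of-ratios scaling, 1.57 under quantile normalization and 1.88 without the second uncontrolled replicate.

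Among genes at 0 in both uncontrolled libraries, YALI0_F23353g, which has no annotation, was at 269 and 272 with pO2 control, at least 448-fold higher against the floor of 3 fragments per library. YALI0_B01914g, of a family of pantothenate transporters, was at 203 and 209.8, at least 603-fold higher. Both genes were thus well covered in one culture and without a single fragment in the other.

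The same contrast was made after glycerol limitation, in the other 4 libraries of the series, to see where the earlier contrast was particular to its phase. After glycerol limitation 97 genes were higher (1.58% of the same 6158 genes) and 73 lower (1.19%). Of the 884 genes higher before, 45 were also higher after, which is 5.09% of the former and 46.4% of the latter, and 10 were lower after. Of the 565 genes lower before, 25 were also lower after, 4.42% of the former and 34.2% of the latter, and 1 was higher after. The genes higher before had a median log2 fold change of 0.50 after, and those lower before one of -0.71. The difference between both contrasts was tested in limma over all 8 libraries. It was at least 2 for 733 genes (11.9%) and -2 or less for 413 (6.71%), and it reached these limits for 617 of the 884 genes higher before and for 329 of the 565 lower before.

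Part of the narrowing lay in the uncontrolled culture, which reached high values only later. YALI0_A00110g, at 1.22 and 1.13 before glycerol limitation without pO2 control, was at 4959.9 and 4419 after it, above the 2517 and 2585 of the controlled culture. The ammonium permease gene YALI0_B13794g reached 2407 and 2369 with and 628 and 1025 without pO2 control, so that the log2 fold change was 1.57 after against 7.42 before (difference 5.85, adjusted p = 2.1e-06). For the multifunctional enzyme of beta-oxidation, YALI0_E15378g, values after were 485 and 489 with and 207 and 237 without control (difference 4.59, adjusted p = 1.5e-07). In these 3 genes the uncontrolled culture thus no longer stood close to 0.

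Other genes came down in the culture that had been high. The acid protease gene YALI0_B05654g had 12.6 and 14.7 with pO2 control after glycerol limitation and 89.2 and 25.8 without it, so the order of the cultures was turned (difference 9.71, adjusted p = 1.0e-05). Histone H4, YALI0_F25883g, was also turned, with 738 and 753 with and 1479.9 and 1698 without control (difference 4.88, adjusted p = 1.9e-06). The peroxiredoxin gene YALI0_A19426g went from lower to higher with pO2 control, at 1409 and 1425 against 626 and 613 (difference -6.83, adjusted p = 7.4e-09). Cytosolic ribosomal proteins stayed lower with pO2 control, by a median of -0.83 after against -2.84 before, and 0 of the 82 were called after. They held 12.7% and 12.6% of the summed FPKM with and 20.2% and 19.1% without control after glycerol limitation, so that their share was larger after than before in both cultures.

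Some differences persisted. The HSP70 gene YALI0_D08184g had a log2 fold change of -3.85 after, with 25.6 and 24.8 against 442 and 321 (difference -0.95, adjusted p = 0.0028). ALK1 (YALI0_E25982g) had one of 3.59, at 299 and 279.5 against 17.3 and 30.9, and its difference between the phases was -0.27 (adjusted p = 0.5). Of the 10 tested ALK genes 5 were still higher after glycerol limitation, with a median of 2.16.

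**Figure D4:**
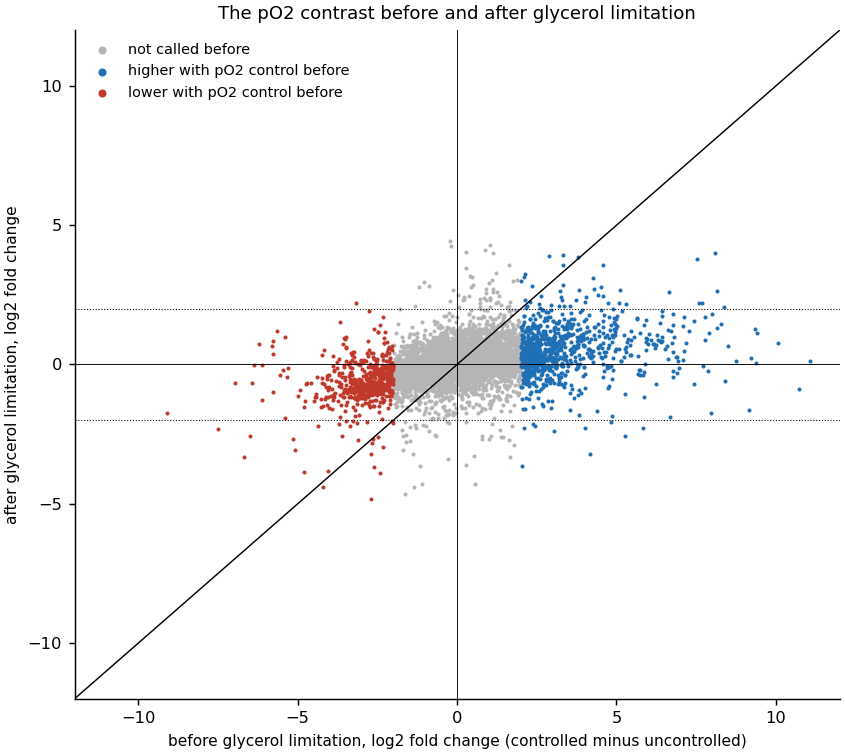
Log2 fold change (controlled minus uncontrolled pO2) after glycerol limitation (vertical axis) against that before it (horizontal axis) for 6158 genes, with genes called before in blue (higher) or red (lower), the solid line marking equal values and the dotted lines a value of 2 in either direction after. Most coloured genes lie between the dotted lines, and 45 of the blue and 25 of the red genes were called in the same direction after.

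**Figure D5:**
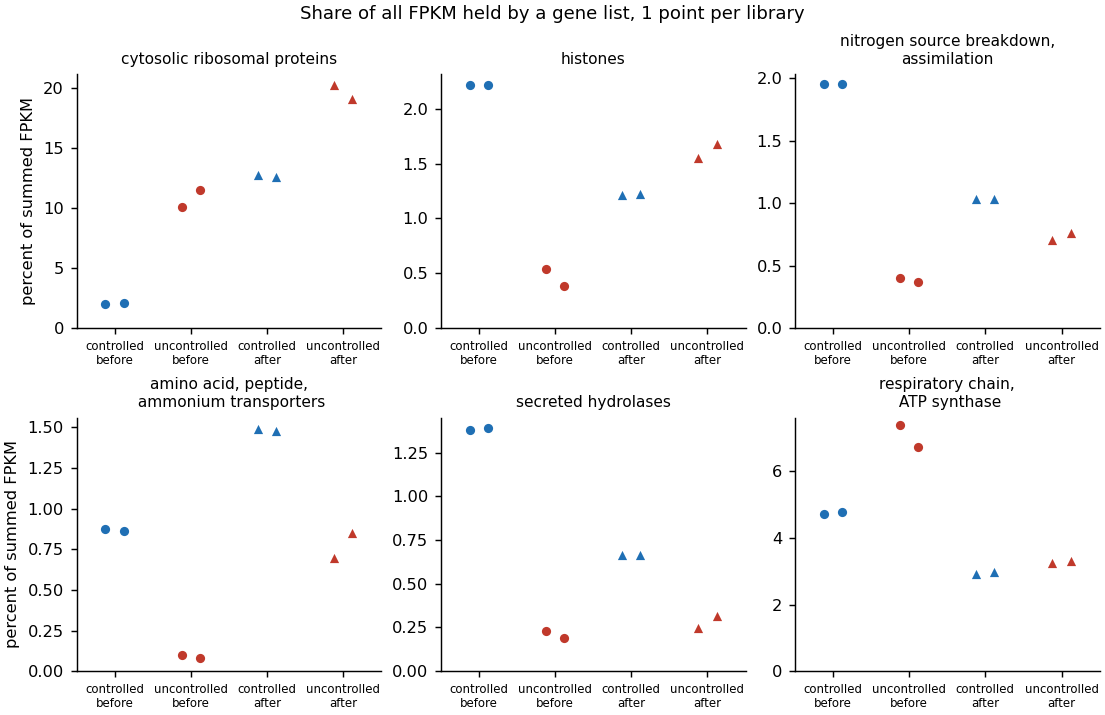
Percent of the summed FPKM of a library held by 6 gene lists, 1 point per library, for controlled (blue) and uncontrolled (red) pO2 before (circles) and after (triangles) glycerol limitation. Before glycerol limitation the groups are apart in each of the 6 lists, with cytosolic ribosomal proteins at 2.03% and 2.05% against 10.1% and 11.5%.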

How the data were processed

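RNA-seq of *Y. lipolytica* ACA DC 50109 covered 8 libraries in 4 groups, of which the 4 taken before glycerol limitation are described. The authors checked the reads with FastQC, aligned them with TopHat2 (genome CLIB122) and derived expression with Cufflinks. Versions are not given in the sources used here. The authors deposited FPKM in 2 tables, with 1 value per gene and library and no stated scaling between libraries. All value columns were mapped to samples, so 0 were left out.

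Both tables were joined by gene identifier. limma 3.58.1 in R 4.3.3 fitted log2(FPKM + 1) of the 4 libraries with a group term, empirical Bayes with a variance trend and 2 residual degrees of freedom, for genes whose FPKM was 1 or more in 2 libraries. The pseudocount of 1 understates the change of low genes. Calls needed an adjusted p (Benjamini-Hochberg) under 0.05 and a log2 fold change of 2 or more in size. The unit was FPKM, so no count model was used as the main test. Fragments were recovered from the FPKM steps (92.9% to 97.5% of the low values used lay within 0.1 of a whole number) and served for depth, the floor of 3 fragments and voom. The difference between phases was an interaction in limma over 8 libraries. The fit was tested on simulated data.

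Functions were taken from the first-ranked KEGG Orthology number at an e-value of 1e-20 or less, in 29 lists and 5 added later, and from Blast and gene ontology terms in the files. Members and lists were chosen with earlier results of these data known. Named genes are the 15 largest changes in each direction, called or central list members, the 10 most abundant genes of each group and genes at the floor in one group, not all of which are named. Gene symbols on hand belonged to another strain and were not used. Alternatives covered the replicate block, pseudocount, filters, scaling, thresholds, weights, left-out libraries and voom. Other steps used Python 3.11.15 with pandas 2.3.3 and matplotlib 3.10.9.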

Additional observations from a re-analysis of the deposited data

Results flagged for a closer look

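The contrast between controlled and uncontrolled pO2 differed before and after glycerol limitation for many genes, by an interaction in limma over all 8 libraries (adjusted p from 7.1e-10 to 1.0e-05). Values are the log2 fold change before minus that after. Genes with a more positive contrast before were YALI0_A00110g with 11.60, YALI0_D02453g with 10.97, the acid protease gene YALI0_B05654g with 9.71, YALI0_A06974g with 9.27 and the amidase gene YALI0_F16401g with 8.29. Smaller differences of this sign were 5.85 for the ammonium permease gene YALI0_B13794g, 4.88 for the histone H4 gene YALI0_F25883g, 4.59 for the multifunctional beta-oxidation gene YALI0_E15378g and 3.49 for the histone H2B gene YALI0_E26455g. A more negative contrast before was found for the unannotated YALI0_D24145g with -7.36, the peroxiredoxin gene YALI0_A19426g with -6.83, the zinc transporter gene YALI0_F15411g with -6.37 and the phosphoglycerate dehydrogenase gene YALI0_F09966g with -5.77. YALI0_D09933g, of the class of alternative oxidases, had -5.21, coproporphyrinogen oxidase YALI0_E29975g -2.81, and the ribosomal protein genes YALI0_F05808g and YALI0_D05731g -2.52 and -2.42. The sign of the contrast itself turned for YALI0_A00110g, YALI0_B05654g, both histone genes and the peroxiredoxin gene, with groups that did not overlap in either phase.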

How the results depend on the processing

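Of 105 called genes examined singly 0 changed sign under the 19 settings tried. That count is no test of stability, because a called gene starts past the minimum log2 fold change. Scaling moved the median of all genes by far less, from 0.313 to 0.00816 (median-of-ratios) and -0.00435 (quantile normalization). The replicate block, the limits for a call and the weights leave a log2 fold change unchanged. A change of sign under at least 1 setting was found for 5 of 28 genes that were not called and for the medians of 4 of 34 lists. The medians were those of glycolysis (0.19, and -0.13 under median-of-ratios scaling), the respiratory chain (-0.38, and 0.12 under quantile normalization), the mevalonate and ergosterol pathway (0.06, and down to -0.25 under median-of-ratios scaling) and iron and copper uptake (-0.04, and up to 0.03 without the first controlled replicate). LIP2 (YALI0_A20350g) went from 0.38 to -0.48 under quantile normalization. With a minimum log2 fold change of 1 the counts were 1900 genes higher and 1266 lower, and with no minimum 2907 and 1901. Leaving out 1 library at a time gave 874 to 911 genes higher and 557 to 592 lower, and 93.4% to 98.1% of the higher and 94.5% to 97.7% of the lower genes were shared with the full fit. These fits leave 1 library in a culture and take the spread from the other pair alone, so they are no test of stability. Pseudocounts of 0.1 and 5 gave 1000 and 606, and 619 and 479. An FPKM of at least 1 in all 4 libraries gave 738 and 547, since 146 higher and 18 lower genes were then not tested. Median-of-ratios scaling kept 712 of the 884 higher and all 565 lower genes. voom on recovered fragments, chosen after seeing the data, gave 1035 and 580. A replicate block gave 884 and 565, and the deviations of same-numbered libraries had a correlation of 0.036 over 6158 genes, so that the numbers were not taken as pairs. At the depth of 5120000 to 5380000 fragments per library, genes near an FPKM of 1 rest on few fragments and their ratios have wide counting intervals.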
